A study of Mus musculus with 4 samples.

Results

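The genes described here encode the machinery that moves proteins and RNA between nucleus and cytoplasm: the importins, the exportins, the mRNA exporters of the Nxf and Nxt families, the small GTPase Ran with its regulators and binding proteins, and the nucleoporins that build the pore. They were chosen by a rule on the symbol, written with earlier results of these data known. It took every symbol beginning with Kpna, Kpnb, or with Ipo, Xpo, Tnpo, Nup, Nxf or Ranbp followed by a digit. It also took Nxt1, Nxt2, Ran, Rangap1 and Cse1l. The rule found 61 of 22552 symbols. The RNA came from haploid testis cells that were sorted on Hoechst staining by flow cytometry, a preparation of early spermatids. The mice were 23 days old, when by the design text spermatids have reached at most step 3. There were 4 libraries, 2 of wild-type mice and 2 of Sox30 knockout mice. Sox30 encodes a SOX family transcription factor. All groups share the age and the sort. The strain label reads DBA/C57/ICR and DBA/C59/ICR for wild-type libraries 1 and 2, and DBA/C58/ICR and DBA/C60/ICR for knockout libraries 1 and 2. The labels neither describe the Sox30 allele nor state that the 2 libraries of a genotype are separate animals. The p-values below therefore reflect the spread among these libraries alone, and that spread may be technical.

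Proteins too large to diffuse through the nuclear pore are carried by receptors of the importin beta family. Importin alpha proteins are adaptors that hold cargo with a classical nuclear localization signal and dock on importin beta. Ran bound to GTP is concentrated in the nucleus, where it strips cargo from importins and loads cargo onto exportins, and Ran GTPase activation in the cytoplasm resets the cycle. Most mRNA leaves by a separate carrier, the Nxf1 and Nxt1 dimer, which does not use the Ran gradient. In male germ cells importin family members are known to be switched on and off in sequence as spermatogenesis proceeds, and the round spermatid later replaces its histones with proteins that have to be imported.

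Levels were given as FPKM, fragments scaled to transcript length and to library size, so levels of different genes can be compared per length. The tables carry no read counts, and library depth is unknown. Values are given for libraries 1 and 2 of the wild type and then, after "versus" or "against", for libraries 1 and 2 of the knockout. Sox30, the check of the labels, was at 11.4 and 16.2 FPKM in wild-type libraries 1 and 2 and at 1.46 and 3.16 FPKM in knockout libraries 1 and 2 (limma adjusted p = 0.0219). Symbols listed at 0 numbered 5915 to 6414 in the wild-type libraries and 9329 to 11112 in the knockout libraries. Marker sums of many cell types differed between genotypes. Of the round spermatid markers Crem was at 209 and 167 against 166 and 114 FPKM and Acr at 348 and 273 against 162 and 108 FPKM. Tssk2 was at 137 and 136 against 0.851 and 0.429 FPKM. The summed FPKM of 4 genes listed as elongating spermatid markers was 10440 and 5976 in the wild type against 37.2 and 2.56 in the knockout. The cells were sorted as early spermatids, so the name of that list does not mean that elongating cells were present. The sum over 7 round spermatid markers, Sox30 among them, was 1735 and 1551 against 413 and 281.7. That of 7 spermatocyte markers was 607 and 619 against 901 and 597, most of it Ccna1, Aurka and Sycp3. In this list Sycp1, Sycp2 and Sycp3 were lower in both knockout libraries, Ccna1 and Hist1h1t were higher in both, and Piwil1 and Aurka overlapped. Only Hist1h1t, at 1.06 and 1.31 against 4.81 and 10.1 FPKM, had a limma adjusted p under 0.05 (0.0392). The lists for 5 other cell types all had lower sums in both knockout libraries. The summed FPKM of 5 spermatogonium markers was 61.1 and 62.1 against 16.2 and 10.99, that of 5 Leydig cell markers was 60.01 and 36.9 against 0.0674 and 0, that of 6 blood markers was 247.8 and 147.3 against 8.51 and 0.178, that of 5 of the 6 listed Sertoli cell markers, nearly all of it Clu, was 83.0 and 221 against 63.5 and 21.9, and that of 2 peritubular markers was 7.62 and 6.46 against 1.23 and 0. Zbtb16, Stra8 and Kit, which mark spermatogonia, Cyp17a1, Cyp11a1 and Hsd3b1 of Leydig cells and Ptprc of blood were at 0 in both knockout libraries. The Sertoli marker Amh was at 0 in all. In the wild type Zbtb16 (0.0518 and 0.140 FPKM), Kit (0.410 and 0.526), Hsd3b1 (0.671 and 0.795) and Ptprc (0.0756 and 0.0363) were already under 1 FPKM. Stra8 was at 7.20 and 5.48, Cyp17a1 at 2.50 and 3.40 and Cyp11a1 at 1.87 and 1.94 FPKM there. The part of these shifts in the results below was not tested, and in sorted bulk RNA fewer cells of a type cannot be told apart from less RNA per cell.

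Most nuclear transport transcripts that were tested had a negative log2 change, and 10 had a positive one. In the limma fit over all 9124 genes with a mean of at least 1 FPKM, 53 of the 61 were tested, 7 fell at an adjusted p under 0.05, none rose and 46 did not pass. At an unadjusted p under 0.05, 17 of the 53 were lower and 0 higher, where 2103 of all 9124 genes tested were lower and 757 higher. At the adjusted threshold 13.4% of all genes tested fell and 1.95% rose. The share of the transport genes that fell, 13.2%, was close to that background, so their number does not set these genes apart. The genes that fell were Rangap1, Kpna4, Ipo7, Cse1l, Nxf1, Nxf3 and Nup43, which serve separate steps of transport. Ipo7, Nxf3 and, among those that did not pass, Ranbp2 were under 1 FPKM in both knockout libraries. They met the minimum through the wild type alone, so they could only be tested as lower. The same holds for Kpna3, Nxt2 and Nup155, which did not pass, with knockout means of 0.854, 0.777 and 0.781 FPKM. All of these genes were kept in the counts of this paragraph. The most abundant transport transcripts, Nxt1, Ran and Ranbp1, did not pass. Over all 53 tested, the 7 that fell included, the log2 change was negative in 43 (81.1%, against 59.8% of all genes tested), and the median was -0.72 against -0.23 for all genes tested. In 33 of the 53 (62.3%, against 38.6% of all genes tested) both knockout values lay under both wild-type values. In 4 (7.55%, against 22.2%) they lay above both: Ran, Nxt1 and the pair Nup62 and Nup62-il4i1, which share sequence.

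**Figure D1:**
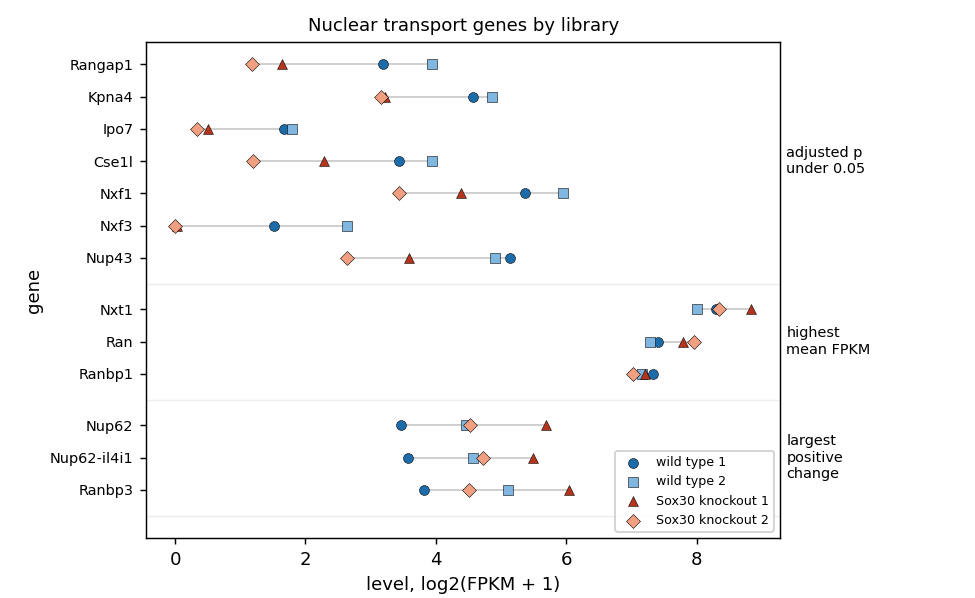
Level of 13 nuclear transport genes in each library, as log2(FPKM + 1) on the horizontal axis, with 1 symbol per library and a grey line over the range. The 7 genes past the threshold have both knockout symbols to the left of both wild-type symbols. Nxt1, Ran and Ranbp1 sit at the far right. In Nxt1 and Ran both knockout symbols lie right of both wild-type symbols, and in Ranbp1 the genotypes overlap. Nup62, Nup62-il4i1 and Ranbp3 have knockout library 1 as their highest value.

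The count rests on few libraries. Without wild-type library 1, 1 of the 7 (Nxf3) was still called, and without wild-type library 2, 0 members passed in the limma fit, while 6 had an unadjusted p below 0.05. In both fits the knockout pair alone gave the spread, and the lone wild-type library was assumed to vary like it. The log2 changes of the 7 ran from -2.62 to -1.36 in the former and from -2.02 to -1.25 in the latter, against -2.16 to -1.31 with all libraries. With the spread taken from the wild-type pair alone, more passed. When knockout library 1 was left out, 22 members fell. When knockout library 2 was left out, 15 symbols fell and 3 rose, and the 7 were called both times. The share of all genes tested that fell was 4.23%, 0.0%, 33.7% and 20.2% in that order, and the share that rose was 0.0%, 0.0%, 10.8% and 9.84%. After quantile normalization the members' median was -0.20 where that of all genes tested was 0.17, and after correction for GC content it was -0.36 where that of all genes was 0.02.

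Of the 10 genes of the Ran system 8 were tested and 1, Rangap1, fell (12.5%, against 13.4% of all genes tested). Ran itself, the GTPase that powers the cycle, was at 169 and 156 FPKM in wild-type libraries 1 and 2 and at 219 and 248 FPKM in knockout libraries 1 and 2. Both knockout values lay above both wild-type values, yet the log2 change of 0.52 (SE 0.27) did not pass (limma adjusted p = 0.237). Rangap1, which triggers GTP hydrolysis by Ran on the cytoplasmic side, was at 8.14 and 14.3 FPKM in wild-type cells versus 2.10 and 1.26 FPKM in knockout cells. Its log2 level fell by 2.16 (SE 0.43; adjusted p = 0.0226 by limma), to 14.95% of the wild-type mean FPKM. In the wild type there were 20.7 and 10.9 Ran transcripts per Rangap1 transcript by FPKM, and in the knockout 104 and 198. Ran has a near-identical copy, listed as Rasl2-9-ps at 232 and 185 FPKM in wild-type cells versus 296 and 331 FPKM in knockout cells, so reads may be split between them and both values are uncertain.

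Among the Ran-binding proteins, Ranbp1, which speeds GTP hydrolysis together with Rangap1, was at 160 and 142 FPKM in wild-type cells versus 146 and 129 FPKM in knockout cells, and the genotypes overlapped (log2 change -0.13, SE 0.27). Ranbp2, the giant filament nucleoporin that anchors SUMO-modified Rangap1 at the pore, was at 2.46 and 3.12 versus 0.444 and 0.676 FPKM. Its log2 change of -1.28 (SE 0.33) lay just outside the threshold (limma adjusted p = 0.0536). Ranbp3, a cofactor of exportin 1, showed how far libraries of a genotype could differ: it was at 13.1 and 33.5 FPKM in wild-type cells versus 65.1 and 21.8 FPKM in knockout cells, with knockout library 1 alone above the wild-type range. Ranbp9 and Ranbp10 are scaffold proteins of a ubiquitin ligase rather than carriers. Ranbp9 was at 38.2 and 53.3 versus 32.5 and 23.2 FPKM, and Ranbp10 at 1.82 and 3.72 versus 4.05 and 3.67 FPKM, neither past the threshold. Ranbp17, a relative of exportin 7, was at 7.03 and 13.0 versus 10.9 and 6.53 FPKM and overlapped. Ranbp6, a relative of importin 5, stayed under 1 FPKM in every library and Ranbp3l was listed at 0 in all 4, so neither was tested.

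Among the importin alpha adaptors, 5 of 6 were tested and 1, Kpna4, fell. Kpna4 was at 22.8 and 28.1 FPKM in wild-type cells versus 8.35 and 7.91 FPKM in knockout cells, with close replicates in both genotypes. Its log2 level fell by 1.53 (SE 0.32; adjusted p = 0.0287 by limma). Kpna2, the most abundant adaptor and one of a separate subfamily, was at 35.2 and 42.6 versus 32.8 and 32.5 FPKM, lower in both knockout libraries by a narrow margin. Its log2 change of -0.24 (SE 0.30) did not pass. That change was 0.08 after quantile normalization and 0.20 after GC correction, where the medians of all genes tested were 0.17 and 0.02. The ratio of Kpna2 to Kpna4 was 1.54 and 1.52 in the wild type and 3.93 and 4.10 in the knockout. Kpna6 was at 14.5 and 20.02 versus 22.3 and 9.99 FPKM, with the wild-type values inside the knockout range. In the wild type Kpna4 stood above Kpna6 in both libraries, and in the knockout Kpna6 stood above Kpna4 in both. Kpna3, the closest relative of Kpna4, was at 2.58 and 2.12 versus 1.68 and 0.0275 FPKM, and Kpna1 at 3.88 and 4.72 versus 1.64 and 2.52 FPKM. Both were lower in both knockout libraries but did not pass (limma adjusted p = 0.239 for Kpna3 and 0.2 for Kpna1). Kpna7 was under 1 FPKM in every library.

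**Figure D2:**
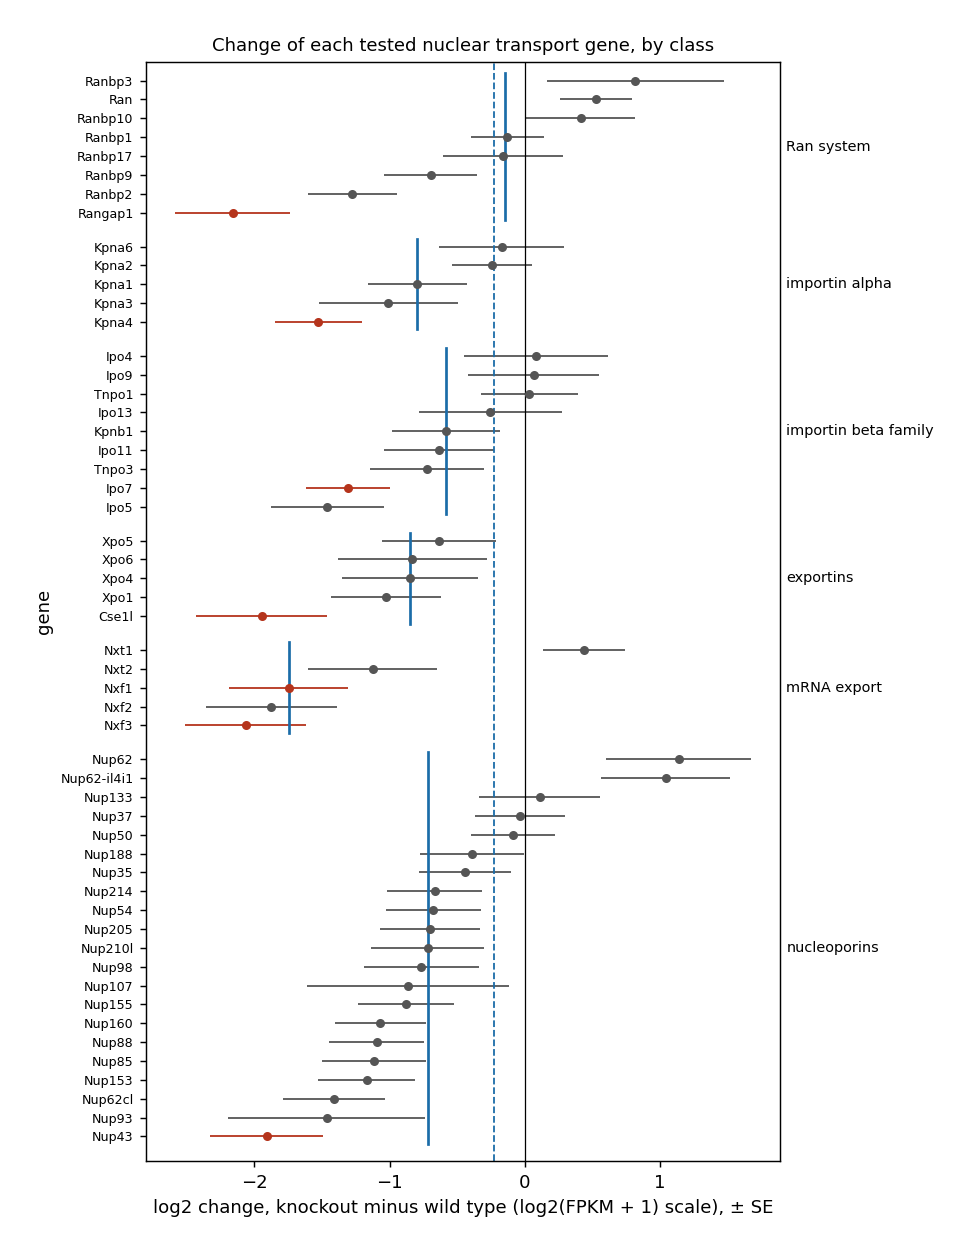
Log2 change of each of the 53 tested genes, knockout minus wild type on the log2(FPKM + 1) scale, with standard errors from the limma fit as bars and genes sorted within class. Red points passed the threshold, solid blue lines are class medians and the dashed blue line is the median of -0.23 over all genes tested, which lies right of 5 of the 6 class medians.

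Of the importin beta family, which binds cargo or importin alpha and crosses the pore, 9 of 11 genes were tested. Of these, 1 fell (11.1%, against 13.4% of all genes tested). That one was Ipo7, an import receptor for ribosomal proteins and linker histone, at 2.20 and 2.46 FPKM in wild-type cells versus 0.424 and 0.263 FPKM in knockout cells. Its log2 level fell by 1.31 (SE 0.31; adjusted p = 0.0423 by limma). Ipo5, also known as an importer of ribosomal proteins and histones, was the most abundant family member in the wild type, at 31.6 and 64.5 FPKM, and stood at 17.1 and 14.6 FPKM in the knockout. The genotypes did not overlap, but the wild-type libraries were themselves far apart and its log2 change of -1.46 (SE 0.42) did not pass (limma adjusted p = 0.0734). Ipo4, which carries histones and is known to import transition protein 2 in spermatids, was at 22.3 and 50.0 FPKM in wild-type cells versus 51.7 and 24.3 FPKM in knockout cells. The genotypes covered the same range (log2 change 0.08, SE 0.54), and the sign turned negative after GC correction.

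Kpnb1, importin beta itself, was modest in these cells, at 3.64 and 6.18 FPKM in wild-type cells versus 3.37 and 2.40 FPKM in knockout cells (limma adjusted p = 0.369). Ipo13, which imports the SUMO-conjugating enzyme, was at 12.2 and 23.4 versus 21.4 and 9.08 FPKM and overlapped. Ipo11 was at 2.74 and 3.23 versus 0.929 and 2.39 FPKM, and Tnpo3, the importer of SR splicing factors, at 1.86 and 4.21 versus 1.56 and 1.13 FPKM. For both genes the knockout values lay below the wild-type values without passing. Tnpo1, which carries hnRNP proteins, was at 1.20 and 2.21 versus 1.76 and 1.68 FPKM, and Ipo9, an importer of histones H2A and H2B, at 0.821 and 1.53 versus 2.39 and 0.486 FPKM, and both overlapped. Tnpo2 and Ipo8 stayed under 1 FPKM in every library. Over the family the median log2 change was -0.58, where that of all genes tested was -0.23. The family median came to -0.01 after quantile normalization and -0.24 after GC correction, where those of all genes tested were 0.17 and 0.02.

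All 5 tested exportins had negative log2 changes, with a median of -0.85, and 1 fell. The median was -0.40 after quantile normalization and -0.36 after GC correction, where those of all genes tested were 0.17 and 0.02. Cse1l, which returns importin alpha to the cytoplasm after import, was at 9.81 and 14.4 FPKM in wild-type cells versus 3.87 and 1.30 FPKM in knockout cells. Its log2 level fell by 1.95 (SE 0.49), close to the threshold (limma adjusted p = 0.0494). Xpo1, the general exporter of proteins with a leucine-rich export signal, was at 3.18 and 4.47 versus 0.837 and 2.001 FPKM, lower in both knockout libraries without passing (limma adjusted p = 0.153). Xpo6, the exporter of actin with profilin, was the most abundant, at 12.2 and 30.4 versus 14.8 and 7.28 FPKM, and overlapped. Xpo5, known for carrying microRNA precursors, was at 5.80 and 11.4 versus 4.597 and 5.24 FPKM, and Xpo4, which carries the factor eIF5A, at 3.93 and 9.73 versus 3.93 and 2.29 FPKM. Wild-type library 2 held the highest value of each tested exportin, and the class median was -0.29 without it and -1.41 without wild-type library 1. Xpo7 was under 1 FPKM in every library.

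The mRNA exporters had the most negative class median, -1.75 over 5 tested genes, and 2 of them fell, against 13.4% of all genes tested. Nxf2, Nxf3 and Nxt2 lie on the X chromosome, a grouping made after the values were seen. Of 254 X-linked genes tested 35.4% fell, with a median log2 change of -1.11. The other tested genes of the class, Nxf1 and Nxt1, had changes of opposite sign. Nxf1, the carrier of bulk mRNA, was at 40.3 and 60.6 FPKM in wild-type cells versus 19.9 and 9.78 FPKM in knockout cells. Its log2 level fell by 1.75 (SE 0.44) with an adjusted p at the edge of the threshold (limma adjusted p = 0.0499). Its partner Nxt1 was at 312 and 256 versus 456 and 323 FPKM, above both wild-type values in both knockout libraries, and did not pass (log2 change 0.44, SE 0.30, limma adjusted p = 0.370). By FPKM there were 7.75 and 4.23 Nxt1 transcripts per Nxf1 transcript in the wild type and 22.9 and 33.1 in the knockout. Nxf3, a relative of Nxf1, was at 1.87 and 5.21 FPKM in wild-type cells, at 0.0186 FPKM in knockout library 1 and at 0 in knockout library 2, and fell (log2 change -2.06, SE 0.45, limma adjusted p = 0.0306). Nxf2, a germ-line relative of Nxf1, was at 15.5 and 14.3 versus 5.55 and 1.86 FPKM and lay just outside the threshold (log2 change -1.88, SE 0.48, limma adjusted p = 0.0542). Nxt2 was at 2.13 and 3.10 versus 1.46 and 0.0983 FPKM, and Nxf7 was listed at 0 in all libraries but wild-type library 1, where it was at 0.0784 FPKM.

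Promoters of 4 genes are shown because 3 of them fell (Rangap1, Kpna4 and Ipo7) and Nup62 had the largest positive change. Each line gives the 250 bases before the annotated start of transcription, 5′ to 3′ on the gene's strand, from RefSeq on build GRCm38.p6, which is not the build of the expression tables. Capitals mark ACAAT, the core bound by SOX family proteins including SOX30, or its reverse complement ATTGT.
Rangap1 (chr15:81729920-81730169, minus strand): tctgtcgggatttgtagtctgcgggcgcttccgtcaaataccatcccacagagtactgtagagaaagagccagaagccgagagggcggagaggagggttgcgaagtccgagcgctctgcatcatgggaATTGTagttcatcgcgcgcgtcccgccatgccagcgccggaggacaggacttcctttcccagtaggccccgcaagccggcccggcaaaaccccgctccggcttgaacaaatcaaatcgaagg
Kpna4 (chr3:69127093-69127342, minus strand): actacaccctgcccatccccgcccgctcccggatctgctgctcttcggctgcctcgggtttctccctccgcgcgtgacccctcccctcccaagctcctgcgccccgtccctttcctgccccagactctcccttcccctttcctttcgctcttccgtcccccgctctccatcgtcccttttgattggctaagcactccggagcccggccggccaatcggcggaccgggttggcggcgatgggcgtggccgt
Ipo7 (chr7:110018065-110018314, plus strand): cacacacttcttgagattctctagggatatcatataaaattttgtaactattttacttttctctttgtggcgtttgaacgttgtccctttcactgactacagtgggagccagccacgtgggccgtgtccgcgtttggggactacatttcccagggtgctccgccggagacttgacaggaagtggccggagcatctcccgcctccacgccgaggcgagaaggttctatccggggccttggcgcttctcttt
Nup62 (chr7:44815838-44816087, plus strand): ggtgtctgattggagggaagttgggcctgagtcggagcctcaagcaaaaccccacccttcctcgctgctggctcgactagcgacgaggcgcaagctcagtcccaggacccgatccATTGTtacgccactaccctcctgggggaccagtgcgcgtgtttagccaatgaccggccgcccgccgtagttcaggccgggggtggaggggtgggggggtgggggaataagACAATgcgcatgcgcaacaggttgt
Rangap1 held 1 match, starting 122 bases before the start site, Nup62 held 2, at 135 and 25 bases before it, and the Kpna4 and Ipo7 windows held none. Among the 47 members that had a promoter entry, 10 held the motif on either strand (21.3%), and of the 4 fallen members with one, which include Nxf1, 1 did. The share over all 32851 promoter windows of the same length was 27.7%. That share counts windows, whereas members were counted as genes with a match in any of their windows, so the units differ. A match is a string of letters and not a binding site, and binding of SOX30 was not measured here.

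Nucleoporins are the proteins of the pore itself, laid out as a Y-shaped scaffold complex on both faces, an inner ring, a channel lined with phenylalanine-glycine repeats, cytoplasmic filaments and a nuclear basket. Of 22 symbols 21 were tested, 1 fell (4.76%, against 13.4% of all genes tested), and the median log2 change was -0.72. In 14 of the 21 (66.7%, against 38.6% of all genes tested) both knockout values lay under both wild-type values. The median was -0.20 after quantile normalization and -0.44 after GC correction, where those of all genes tested were 0.17 and 0.02. Nup43, a small propeller protein of the Y complex, was at 34.03 and 29.1 FPKM in wild-type cells versus 10.99 and 5.22 FPKM in knockout cells. Its log2 level fell by 1.91 (SE 0.42; adjusted p = 0.0324 by limma). Nup37, another small Y complex propeller and about as abundant in the wild type, was at 44.3 and 33.4 versus 44.2 and 31.8 FPKM, and the genotypes covered the same range (log2 change -0.04, SE 0.33). The ratio of Nup37 to Nup43 was 1.30 and 1.15 in the wild type and 4.02 and 6.09 in the knockout.

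**Figure D3:**
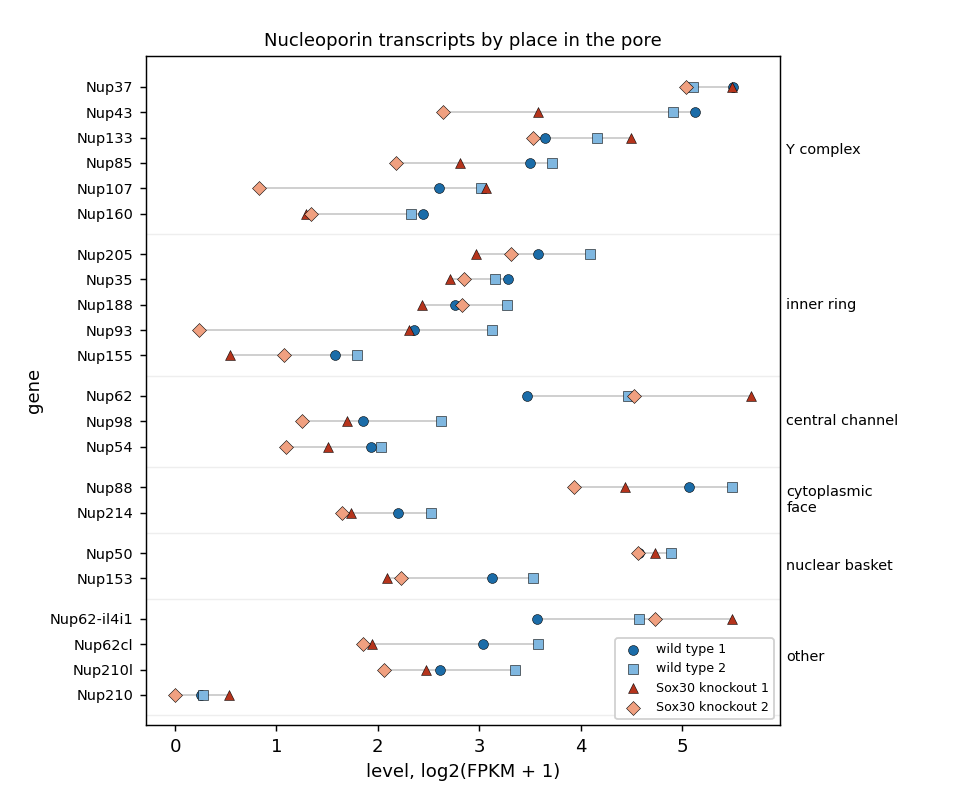
Level of each of the 22 nucleoporin symbols in each library, as log2(FPKM + 1) on the horizontal axis, grouped by place in the pore, with 1 symbol per library. Nup43 has both knockout values well left of the wild-type values beside an overlapping Nup37, and in Nup107 and Nup93 knockout library 2 lies far below the other 3 libraries.

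The rest of the Y complex was mixed. Nup160 was at 4.44 and 4.01 FPKM in wild-type cells versus 1.44 and 1.53 FPKM in knockout cells, and Nup85 at 10.3 and 12.2 versus 6.01 and 3.54 FPKM, both apart between genotypes but not past the threshold (limma adjusted p = 0.0922 and 0.116). Nup107 was at 5.08 and 7.11 FPKM in wild-type cells, at 7.36 FPKM in knockout library 1 and at 0.778 FPKM in knockout library 2, so its log2 change of -0.86 (SE 0.75) became 0.25 without knockout library 2. Nup133 was at 11.5 and 16.9 versus 21.6 and 10.5 FPKM and overlapped. In the inner ring, which holds the channel open, each of 5 log2 changes was negative, between -1.46 and -0.39, and none passed. Only Nup155 had an unadjusted p under 0.05 in the limma fit, and it met the minimum level for testing through the wild type alone. Nup205 was at 10.97 and 16.1 versus 6.80 and 8.93 FPKM, Nup35 at 8.76 and 7.93 versus 5.55 and 6.19 FPKM, and Nup155 at 1.98 and 2.48 versus 0.460 and 1.10 FPKM, each lower in both knockout libraries. Nup93, which ties the ring together, was at 4.12 and 7.70 versus 3.96 and 0.181 FPKM, and Nup188 at 5.80 and 8.68 versus 4.40 and 6.09 FPKM. The log2 changes of Nup35 and Nup188 turned positive after quantile normalization, at 0.12 and 0.16, where the median of all genes tested was 0.17. That of Nup35 was also positive after GC correction.

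Nup62, a core protein of the channel, had the largest positive log2 change of the set. It was at 10.1 and 21.1 FPKM in wild-type cells versus 50.3 and 22.0 FPKM in knockout cells, a log2 change of 1.14 (SE 0.54) that did not pass (limma adjusted p = 0.211). Both knockout values were above both wild-type values, but wild-type library 2 and knockout library 2 were nearly level. Also listed was Nup62-il4i1, a readthrough transcript that shares sequence with Nup62, at 10.8 and 22.8 versus 44.0 and 25.5 FPKM. How reads in the shared sequence were assigned is not stated. The pair is therefore not taken as independent, though each symbol is counted in the numbers given here. Without knockout library 2, the 3 symbols that rose were Ranbp3 and this pair. Nup98, at 2.60 and 5.17 versus 2.24 and 1.37 FPKM, and Nup54, a partner of Nup62, at 2.82 and 3.10 versus 1.85 and 1.14 FPKM, were lower in both knockout libraries without passing.

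On the cytoplasmic face Nup88 was at 32.6 and 44.1 FPKM in wild-type cells versus 20.7 and 14.3 FPKM in knockout cells, and its partner Nup214 at 3.60 and 4.74 versus 2.33 and 2.14 FPKM. Both were lower in both knockout libraries and neither passed (limma adjusted p = 0.0964 and 0.251). In the nuclear basket Nup153 was at 7.72 and 10.6 versus 3.25 and 3.69 FPKM (limma adjusted p = 0.0888), whereas Nup50, a mobile basket protein that helps to unload importin alpha, was at 22.8 and 28.7 versus 25.6 and 22.6 FPKM and overlapped. Nup210 stayed under 1 FPKM in every library, while its germ-line relative Nup210l was at 5.14 and 9.24 versus 4.56 and 3.16 FPKM. Nup62cl, a Nup62-like gene, was at 7.24 and 10.97 versus 2.85 and 2.60 FPKM and lay just outside the threshold (limma adjusted p = 0.0591).

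Transport genes outside the symbol rule were read from a list of 44 symbols, of which 42 matched and 39 were tested. Of these 2 fell, 1 rose and 36 did not pass. The share that fell was 5.13% and the share that rose 2.56%, against 13.4% and 1.95% of all genes tested, and the median log2 change was -0.31 against -0.23. Rcc1, the chromatin-bound exchange factor that loads Ran with GTP, was at 10.2 and 13.2 FPKM in wild-type cells versus 3.01 and 0.398 FPKM in knockout cells and fell (log2 change -2.41, SE 0.57, limma adjusted p = 0.0410). Rcc1 and Rangap1, which act on Ran from opposite sides of the envelope, both fell, and Ran did not pass. Rangrf, a Ran-binding factor, was at 151 and 128 versus 306 and 510 FPKM and rose (log2 change 1.499, SE 0.34, limma adjusted p = 0.0364). Thoc1, of the complex that couples transcription to mRNA export, was at 33.4 and 30.6 versus 6.86 and 6.88 FPKM and fell (limma adjusted p = 0.00860). The 2 most abundant genes of the list did not pass: Ddx25, a germ-cell RNA helicase with a role in mRNA export, was at 814 and 761 versus 814 and 439 FPKM, and Eif5a, a translation factor carried by exportin 4, at 412 and 438 versus 377 and 333 FPKM.

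The log2 changes were also set beside the GC content of the transcripts. Over the 52 tested members with a GC content the Pearson correlation of the log2 change with it was 0.455 (Spearman 0.483), and over 9004 genes tested it was 0.212 (0.332). These are correlations across genes of the same 4 libraries and describe them only. In the 26 members of lower GC content, up to 46.8%, the median log2 change was -1.05, 5 fell and 1 had a positive change. In the 26 of higher GC content the median was -0.49, 2 fell and 8 had a positive change. Over all genes tested 13.4% fell and 59.8% had a negative change. Rangap1 and Nxf1 were the fallen genes of high GC content, at 55.4% and 51.2%. After the GC correction, under which 12.9% of all genes tested fell and 3.58% rose, Rangap1, Nxf1, Nxf3 and Nup43 were still called and Kpna4, Ipo7 and Cse1l were not. The log2 change went from -1.53 to -0.84 for Kpna4, from -1.31 to -0.63 for Ipo7 and from -1.95 to -1.33 for Cse1l.

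**Figure D4:**
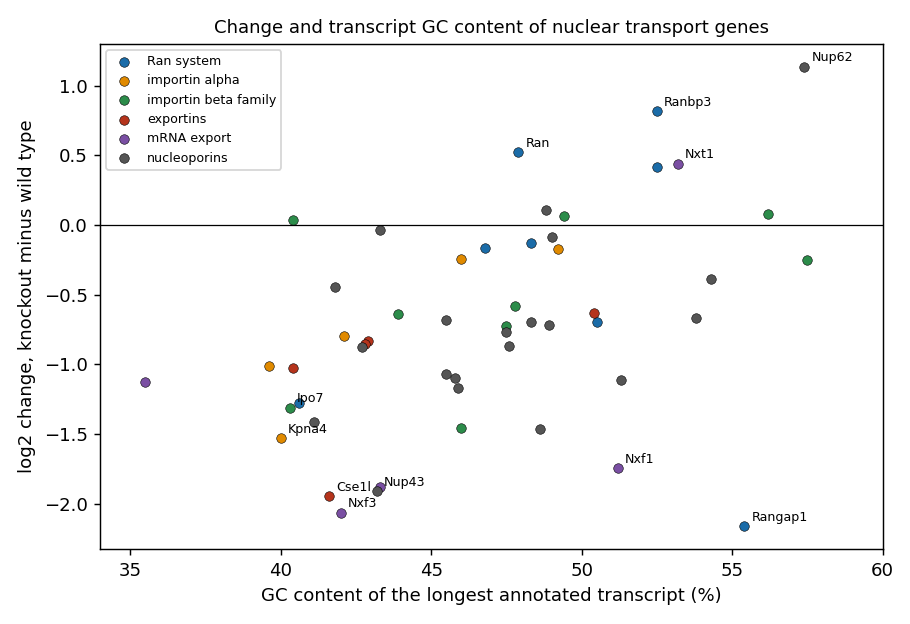
Log2 change of 52 tested genes (vertical axis, knockout minus wild type) against the GC content of the longest annotated transcript (horizontal axis, percent), coloured by class, with 1 point per gene. Points rise from left to right, with Rangap1 far below genes of like GC content and Nup62 at the top right.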

How the data were processed

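Each library came as a table of 23021 entries that the authors deposited in FPKM. TopHat2 2.0.6, Cufflinks 2.0.2, Cuffdiff and build mm9 appear in the submitters' processing notes. What each tool did, and whether strand was used, is not stated there, so overlapping antisense genes cannot be told apart. Groups and library numbers came from sample titles. Entries of a symbol were summed; no member had more than 1. Genes with a mean of at least 1 FPKM were fitted as log2(FPKM + 1), a scale that understates changes of low genes, with genotype as the only term in limma 3.58.1 (R 4.3.3), with a mean-variance trend, 2 residual and 3.84 prior degrees of freedom. Two-sided p-values were Benjamini-Hochberg adjusted over 9124 genes, threshold 0.05; SE are from that fit. On simulated data with few genes changed, the fit returned the known sizes without bias. It called most very large changes but none of the smaller ones, so genes that did not pass are not shown to be unchanged. In the real data many more genes passed, so the simulation does not give the size that could pass there. Most falls of the members were smaller than the smaller simulated size.

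The members, classes and lists were chosen with earlier results of these data known. The rule for named genes took Ran, Sox30, members past the threshold, in each class the 4 most abundant and the 2 largest changes either way, and each nucleoporin; the other members are given too. Of the list outside the symbol rule it took genes past the threshold and the 2 most abundant. Transcript GC content and chromosomes came from GENCODE M21 by symbol (60 of 61 members for GC content), with no coordinates used. Alternatives were other pseudocounts, filters, scalings and empirical Bayes settings, a GC correction (lowess span 0.3), leaving out each library, the library number as a block and classes by known role. A crossed pairing was added after seeing the data.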

Additional observations from a re-analysis of the deposited data

How the results depend on the processing

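With 2 libraries per genotype and unknown depth, only large changes can pass, and a change that did not pass is not shown to be absent. The falls numbered 7 with a pseudocount of 5, a mean of at least 5 FPKM, median-ratio scaling, no mean-variance trend or symbols listed once. The genes were not always the same: 6, 5, 6, 6 and 7 were shared with the main result. Of all genes tested 14.1%, 14.4%, 12.9%, 13.4% and 13.2% fell in these settings. At a mean of at least 5 FPKM only 33 members were tested, where the main fit tested 53. The falls were 5 with robust empirical Bayes (all genes tested: 13.1%). They were 3 with a pseudocount of 0.1 (all genes tested: 10.6%), 1 with no filter on low values (6.37%), 4 after quantile normalization (11.1%), 4 after GC correction (12.9%) and 0 to 22 with 1 library left out, while rises were 0 to 3 with 1 library left out and 0 otherwise in these settings. The correlation of deviations of same-numbered libraries was -0.20, so the numbers are not taken to pair samples: with the library number as a replicate block 3 fell (11.6%), and with a crossed pairing 10 fell (15.5%) and 1 rose (4.27%).

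The median log2 change of the members was negative in every setting: -0.37 with a pseudocount of 5, -0.20 after quantile normalization, -0.36 after GC correction and -0.96 to -0.46 with 1 library left out. The cause of these shifts was not tested. With a pseudocount of 5 class medians were -0.34 for importin alpha, -0.74 for mRNA export, -0.27 for the importin beta family, -0.51 for exportins and -0.37 for nucleoporins, and the last was -0.97 with a pseudocount of 0.1. Importin alpha gave -0.52 with no filter and -0.24 at a mean of at least 5 FPKM, and the importin beta family -0.25 in both. Quantile normalization gave -0.23 for importin alpha, -0.0080 for the importin beta family and -0.20 for nucleoporins, where the median of all genes tested was 0.17. GC correction gave -0.19 for importin alpha and -0.44 for nucleoporins, where that median was 0.02. The Ran system, at -0.15, has no stable sign: 0.067 with median-ratio scaling, 0.12 after quantile normalization, 0.21 after GC correction and 0.20 by known role. With 1 library left out class medians ran from -0.36 to 0.062 (Ran system), -0.91 to -0.32 (importin alpha), -0.76 to -0.27 (importin beta family), -1.41 to -0.29 (exportins), -2.08 to -1.27 (mRNA export) and -0.99 to -0.51 (nucleoporins).

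None of the 7 genes that fell changed sign. Those that did had log2 changes between -0.44 and 0.11, except Nup107 at -0.86, which was called lower without knockout library 1. After median-ratio scaling Kpna6 was at 0.037, Nup37 at 0.18, Nup50 at 0.13, Ranbp1 at 0.093 and Ranbp17 at 0.041. After quantile normalization the median of all genes tested was 0.17. In that setting Ipo13 was at 0.17, Kpna2 at 0.078, Kpna6 at 0.25, Nup188 at 0.16, Nup35 at 0.12, Nup37 at 0.30, Nup50 at 0.25 and Ranbp17 at 0.34. After GC correction Ipo4 was at -0.11, Kpna2 at 0.20, Kpna6 at 0.10, Nup35 at 0.17, Nup37 at 0.52, Nup50 at 0.20, Ranbp1 at 0.19 and Ranbp17 at 0.24, and with a pseudocount of 0.1 Ipo9 was at -0.021. With 1 library left out the ranges crossing 0 were -0.83 to 0.32 (Ipo13), -0.48 to 0.64 (Ipo4), -0.53 to 0.66 (Ipo9), -0.71 to 0.37 (Kpna6), -1.98 to 0.25 (Nup107), -0.38 to 0.59 (Nup133), -0.27 to 0.19 (Nup37), -0.25 to 0.073 (Nup50), -0.56 to 0.24 (Ranbp17) and -0.24 to 0.31 (Tnpo1).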

Other observations

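On the basis of the annotation 5 transport genes lie on the X chromosome: Nxf2, Nxf3, Nxf7, Nxt2 and Nup62cl, a grouping made after their values were seen. All 4 that were tested had both knockout values under both wild-type values, with log2 changes from -2.06 to -1.12 and a median of -1.65, and 1 of them, Nxf3, passed. X-linked genes were low in general: of 254 tested, 35.4% fell and 66.1% had both knockout values under both wild-type values, with a median log2 change of -1.11. The 49 tested members that are not on the X chromosome had a median of -0.70, with 6 falls (12.2%, against 13.4% of all genes tested).

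Libraries of a genotype also differed in a direction common to these genes. Wild-type library 2 was above wild-type library 1 for 44 of the 53 tested members (83.0%, against 58.8% of all genes tested), including all 9 of the importin beta family and all 5 exportins. Knockout library 1 was above knockout library 2 for 41 of the 53 (77.4%, against 60.7%). The median absolute log2 difference between the wild-type libraries was 0.469 for the members and 0.304 for all genes tested, and between the knockout libraries 0.461 and 0.522. Summed over all 61 members, FPKM were 1214 and 1392 in the wild type and 1431 and 1073 in the knockout. Without Ran, Nxt1 and Ranbp1 the sums were 572.5 and 838.7 against 610.1 and 372.1.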
